A study of Mus musculus with 7 samples.

Results

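The genes described here are 10 genes of the xenobiotic response of mouse liver, Nr1i2, Nr1i3, Ahr, Nfe2l2, Cyp1a1, Cyp1a2, Por, Gstm1, Gstm2 and Gstm3, out of 21418 autosomal protein-coding genes. They were taken by name. Each gene span was extended by 50 kb on both sides, with Cyp1a1 and Cyp1a2 treated as 1 span and the 3 Gstm genes as 1 span, which gave 7 windows. All peaks of the CTCF and Rad21 lists that overlapped a window were kept, namely 96 of 68667 CTCF peaks and 108 of 68656 Rad21 peaks.

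Both lists come from ChIP-seq of nuclei from livers of female Crl:CD1(ICR) mice, an outbred strain, that were 8 weeks old and for which the labels name no treatment. CTCF was immunoprecipitated in 4 libraries and Rad21, a subunit of the cohesin ring, in 3. The authors pooled the libraries of each antibody before calling peaks, so each factor is 1 list without replicates. No spread between mice could be computed, no difference was tested, and the lists do not record the read depth. All values below describe these pools, and all coordinates are mm9. The liver label cannot be checked from such lists, since they measure no RNA.

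CTCF is a zinc finger protein that binds a long, directional DNA motif, and cohesin extrudes chromatin loops and is halted where it meets bound CTCF. Hepatocytes sense foreign chemicals with the nuclear receptors PXR (gene Nr1i2) and CAR (Nr1i3), with the aryl hydrocarbon receptor (Ahr) and with Nrf2 (Nfe2l2), a transcription factor that oxidative and electrophilic stress releases from degradation. Their targets include the cytochromes P450 Cyp1a1 and Cyp1a2, the P450 reductase Por, which passes electrons to these enzymes, and the glutathione S-transferases of the mu class, Gstm1, Gstm2 and Gstm3.

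The CTCF motif used throughout is 20 bp wide and was learned from strong CTCF peaks outside the windows. Its consensus is TGGCCACCAGGGGGCGCCAG, and a peak was counted as motif-bearing when the best match, no further than 100 bp from the summit, had 13.3 bits or more. In background windows 1% reach this value. The 7 flanking sequences below are shown because each belongs to the strongest motif-bearing peak, bound by both factors, on its side of a gene span. There were 8 such flanks, and the sequences of 7 are given. Some sides had no motif-bearing peak of this kind, and stronger flanking peaks without a motif are left out of this set. Capitals mark the motif, read 5′ to 3′ on the minus strand, and the lower case letters are its neighbours.
Nr1i2, low-coordinate side, chr16:38240025-38240044: cctttAGCCCACTAGGGGGCAGTCAacagg
Nfe2l2, low-coordinate side, chr2:75474839-75474858: accatAGCCCAGCAGGTGGCAGCAGgagag
Cyp1a, low-coordinate side, chr9:57493499-57493518: tccaaGGTCCAGCAGAGGGCGCCGAcccac
Cyp1a, high-coordinate side, chr9:57592726-57592745: acttgGCACCACCAGGTGGCACTACcagac
Por, low-coordinate side, chr5:136106668-136106687: aacacCTACCACTAGGGGGCAGCAGgggtt
Por, high-coordinate side, chr5:136239593-136239612: actttGTGCCACTGGGTGGCGCTAAcgccc
Gstm, low-coordinate side, chr3:107721144-107721163: ttcatATGCCAGAAGAGGGCGCCAGatcct

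Peaks were placed in 3 classes. A CTCF peak that shared at least 1 bp with a Rad21 peak was called CAC (cohesin-and-CTCF), a CTCF peak without one Lone CTCF, and a Rad21 peak without a CTCF peak CNC (cohesin-non-CTCF). In the 7 windows 79 of 96 CTCF peaks were CAC, or 82.3% (95% Wilson interval 73.5 to 88.6%), beside 73.7% of the whole CTCF list. Of the 108 Rad21 peaks 33 were CNC, or 30.6% (22.7 to 39.8%), beside 26.4% of the whole Rad21 list. Intervals cover counting error only. The CAC share depended on how overlap was counted, since with summits required to lie within 100 bp it was 56.2% in the windows and 60.8% in the list. It also came level with the list when only peaks with a −log10 q of at least 10 were kept, at 71.4% against 71.2%. The CNC share was below that of the list, 14% against 16.1%, when only peaks of at least 5-fold enrichment were kept.

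**Figure D1:**
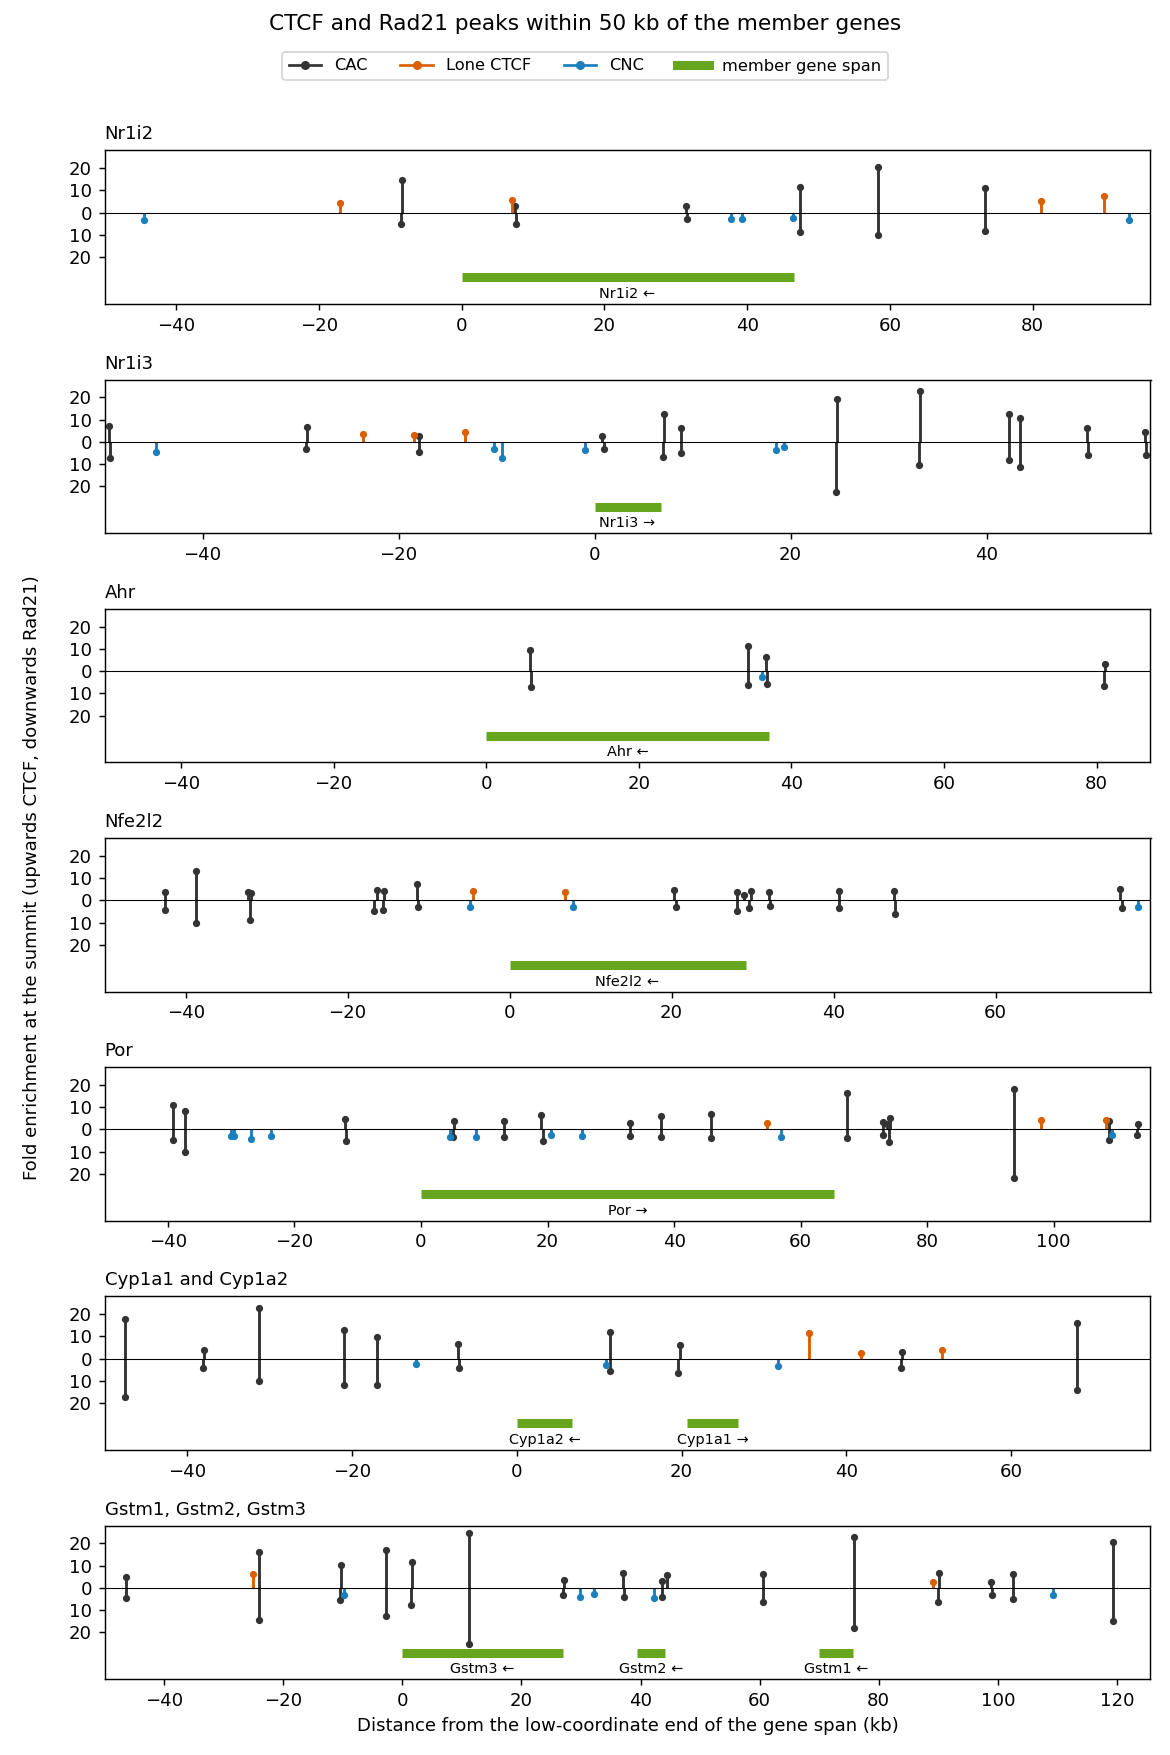
Peaks in the 7 windows. The x axis is the distance in kb from the low-coordinate end of the gene span and the y axis the fold enrichment at the peak summit, upwards for CTCF and downwards for Rad21, with dark stems for CAC, orange for Lone CTCF and blue for CNC peaks, green bars for the member genes and arrows for the direction of transcription. The Ahr window holds 4 CTCF peaks, the Por window 19, and the tallest stems are those of the Gstm window, at 24.8 for CTCF and 25.4 for Rad21.

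The windows differed widely in how many peaks they held. The Ahr window of 137 kb had 4 CTCF and 5 Rad21 peaks, or 2.92 and 3.65 per 100 kb. The Nr1i3 window, the shortest with 107 kb, had 15 and 18, or 14.1 and 16.9 per 100 kb. Over the windows of all autosomal protein-coding genes the medians were 5.26 CTCF and 4.89 Rad21 peaks per 100 kb, so that Nr1i3 stood at percentiles 96.6 and 99.6 of genes and Ahr at 30.6 and 38.7. Nfe2l2 stood at percentiles 94.9 and 94.7 with 17 CTCF and 16 Rad21 peaks, and Por at 90 and 98.7 with 19 and 25. The Cyp1a window held 13 peaks of each factor, at percentiles 84.6 and 87.2, and the Gstm window 18 and 20, at 84.6 and 91.7. Nr1i2, with 10 and 11 peaks, was at 63.1 and 71.0. Ahr was thus the only one of the 7 windows below the median gene in either list. Gene content moved with these counts in part, as the windows of Nr1i3 and Gstm held 8 protein-coding genes each, those of Cyp1a and Por 5, that of Nr1i2 3, and those of Ahr and Nfe2l2 2. Its part in the counts was not tested.

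**Figure D2:**
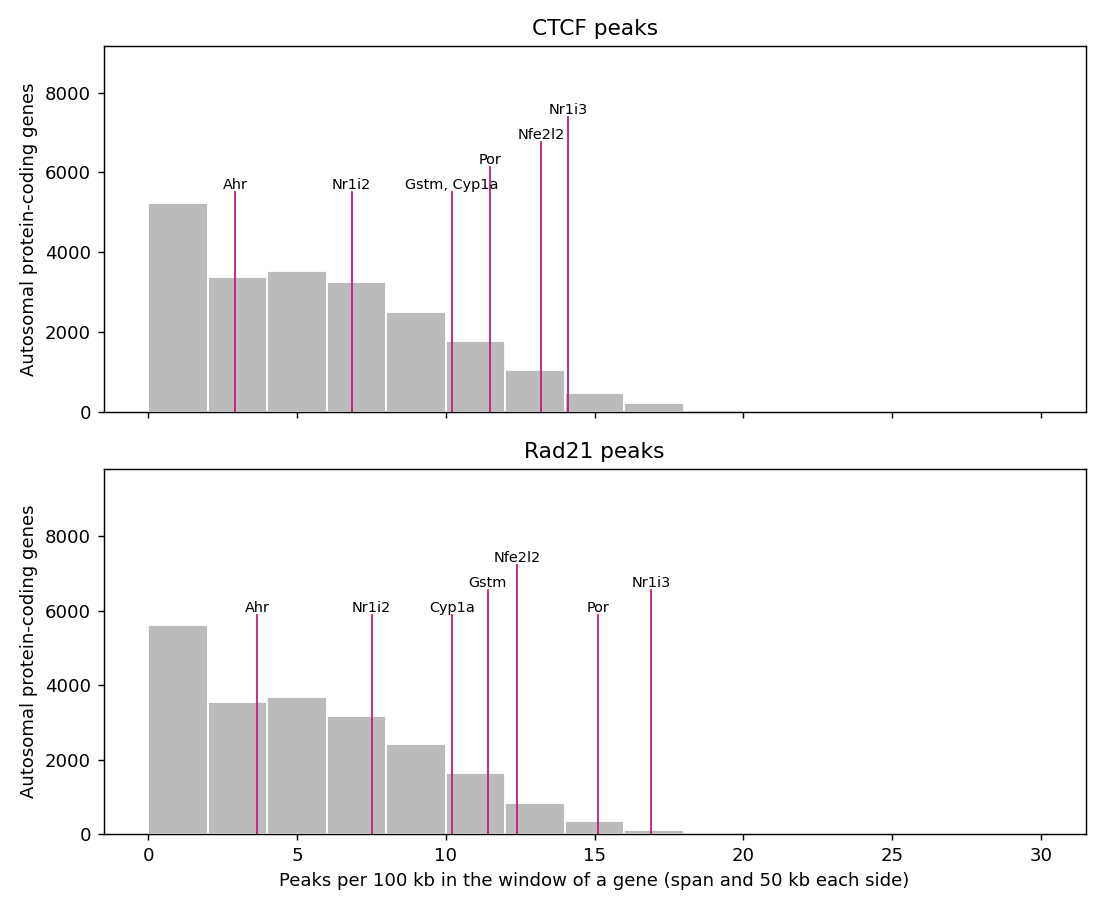
Peak density around the 7 gene spans. The grey bars give the number of autosomal protein-coding genes by peaks per 100 kb in their own window of 50 kb on each side, for CTCF above and Rad21 below, and the vertical lines mark the 7 windows. Ahr lies to the left, at 2.92 CTCF peaks per 100 kb, and Nr1i3 furthest to the right, at 14.1.

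Strength was read from the fold enrichment at the summit, the ratio of reads to the local background that MACS2 gives, which was compared only within a list. The median over the windows was 5.83 for CTCF (95% interval from order statistics 4.30 to 6.51), beside 6.05 for the whole list, and 4.28 for Rad21 (3.62 to 4.98), beside 4.93. With windows of 100 kb on each side the CTCF median was 6.21 and lay above that of the list. Of the 96 CTCF peaks 46 lay above the list median, and 6 lay above the 90th percentile, where by construction 10% of the list lies. By window the CTCF median ran from 4.02 around Nfe2l2 to 9.68 around Cyp1a. The Nfe2l2 window was thus rich in peaks that were mostly weak, with 2 of 17 CTCF peaks above the list median, while 9 of 13 were above it around Cyp1a.

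**Figure D3:**
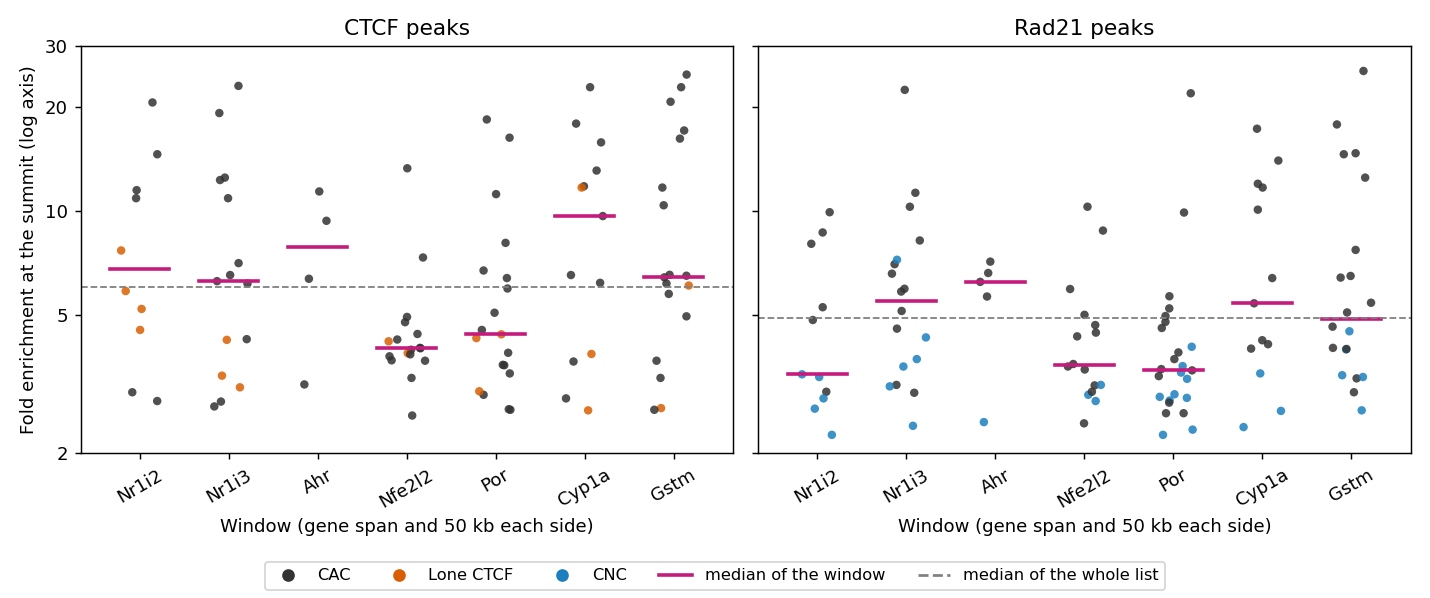
Fold enrichment of every peak by window, for CTCF on the left and Rad21 on the right, on a log axis. Each point is 1 peak coloured by class, the short bars are medians of the window and the dashed line is the median of the whole list, 6.05 for CTCF and 4.93 for Rad21. Lone CTCF and CNC points lie mostly low, with highest values of 11.7 and 7.24.

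A motif was present at 31 of 96 CTCF peaks, or 32.3% (23.8 to 42.2%), beside 45.2% of the list, and at 24 of 79 CAC peaks, beside 46.9%. Distance to promoters also differed, and its part in the motif share was not tested. Of the CTCF peaks 36 of 96, or 37.5%, lay no more than 1 kb from the start of transcription (TSS) of a protein-coding gene, beside 23.4% of the list, and of the Rad21 peaks 40 of 108, or 37.0%, beside 23.9%. Among the CTCF peaks near a TSS 7 of 36 carried a motif, or 19.4% (9.75 to 35.0%), close to the 19.8% of all such peaks within 50 kb of a gene. Among those beyond 1 kb 24 of 60 did, or 40% (28.6 to 52.6%), beside 52.9%. CAC peaks with a motif had a median enrichment of 12.4 and those without one of 4.42, beside 14.3 and 5.03 in the whole list. None of the 33 CNC peaks carried a motif, which allows a share of up to 10.4% by the Wilson interval, beside 2.83% of CNC peaks in the list. Of the 31 motifs 13 read on the plus and 18 on the minus strand, and 12 held a CpG, the dinucleotide that can be methylated, beside 41.7% of motifs in the list.

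All 8 flanking motifs, the 7 shown above and 1 of the Nr1i3 window, read on the minus strand. This is the strand of the genome, and the member genes lie on both strands. Among all 31 motifs of the windows 18 read on it, and the share for such flanks over all genes was not computed. Of the 7 spans only Cyp1a and Por had a motif-bearing CAC peak on each side, and in 0 of these 2 did the motifs of the highest such CTCF peak on each side point towards each other across the span, the arrangement known from loop anchors. Other pairs of peaks around Cyp1a did. On its low-coordinate side the motif of 25.3 bits, at a CTCF peak of 17.9, read on the plus strand and faced the minus-strand motif of 20.4 bits on the other side, so that the count rests on taking 1 peak for each side. By the same count 22.6% of the windows of all autosomal protein-coding genes with such peaks on both sides had it. With windows of 100 kb on each side, or with a motif threshold set at 5% of background windows, the count was 2 spans.

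A CAC peak lay within 1 kb of an annotated TSS in 9 of the 10 genes, beside 50.7% of autosomal protein-coding genes. Each of the 9 therefore had a CTCF and a Rad21 peak there, beside 54.9% and 54.4% of genes, and a peak of either factor is found at 58.0%. The exception was Cyp1a2. The strongest CTCF peak at the TSS had an enrichment of 22.8 at Gstm1, 11.5 at Nr1i2, 6.74 at Por, 6.38 at Ahr, 6.21 at Cyp1a1, 5.77 at Gstm2, 4.02 at Nfe2l2, 3.70 at Gstm3 and 2.73 at Nr1i3. The value for Por was at an internal TSS, well inside the gene. Without replicates no spread is at hand to separate near neighbours in this order, such as Por, Ahr and Cyp1a1. When only the outermost TSS of each gene was used, 8 of the 10 genes kept a peak of either factor, and Cyp1a2 and Por had none. With peaks of at least 5-fold enrichment 7 genes kept one. The share over all genes is not given at these settings. The CAC calls rest on an overlap of 1 bp. Summits of the TSS pairs lay 248 bp apart at Nr1i3, 180 bp at Ahr, 194 bp at Cyp1a1 and 252 bp at Gstm3. With summits required within 100 bp these pairs would not be CAC.

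Nr1i2 encodes PXR, the receptor of many drugs, and is transcribed from the minus strand of chr16, with its span at 38248409 to 38294910. A CAC peak lay just upstream of its TSS, with the CTCF summit 865 bp and the Rad21 summit 886 bp before it. Its CTCF enrichment was 11.5, at percentile 71.1 of the list, and its Rad21 enrichment 8.68, at 74.6. At the TSS itself there was only a CNC peak, at an enrichment of 2.26, near the lowest values of the Rad21 list. The promoter of the gene thus had its stronger peak pair upstream of the start, not on it.

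The strongest pair of the Nr1i2 window lay further upstream, in an intron of 4932425I24Rik 11.8 kb from the span, at chr16:38306480-38307001, with enrichments of 20.6 for CTCF and 9.93 for Rad21. It did not pass as motif-bearing, with a best match of 12.5 bits. On the other side, beyond the 3′ end of Nr1i2, the strongest pair lay 8.38 kb away in an intron of Gsk3b, with 14.6 for CTCF and 5.28 for Rad21. Within the gene no peak reached the median of its list. The 3 CTCF peaks in its introns had enrichments of 5.88 (Lone CTCF), 3.0 and 2.83 (both CAC), and the 5 Rad21 peaks reached 4.85. The highest Lone CTCF peak of the window, at 7.70, and the highest CNC peak, at 3.38, lay near its 2 ends.

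Nr1i3 encodes CAR, the receptor behind the phenobarbital response, and its span of 6732 bp lies on the plus strand of chr1 at 173144101 to 173150832. The pair near its TSS was among the weakest of the lists, with 2.73 for CTCF (percentile 3.85) and 2.99 for Rad21 (10.9). A CNC peak of 3.74 lay 982 bp upstream of the TSS. Right behind the 3′ end of the gene, in an intron of Tomm40l, was a pair of 12.5 for CTCF and 6.60 for Rad21, whose CTCF peak carried a motif of 23.9 bits, the second highest score of the 96 peaks.

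The pair in Tomm40l was not the strongest of the high-coordinate side, where stronger pairs are not reported here. On the low-coordinate side of Nr1i3 no CTCF peak exceeded 7.08, none of the CAC peaks passed as motif-bearing, and the highest Rad21 value, 7.24, belonged to a CNC peak 9.46 kb from the span, the strongest of all 33 CNC peaks. A CAC peak of 6.54 on that side had a best match of 13.3 bits, which fell below the threshold before rounding. The next highest CNC peak of the 7 windows had 4.50. The highest Lone CTCF peak of the window reached 4.25.

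Ahr, whose protein binds dioxins and polycyclic aromatic compounds, lies on the minus strand of chr12 at 36182646 to 36219710. All 4 CTCF peaks of its window were CAC. One sat at an annotated TSS, with the CTCF summit 38 bp from it and enrichments of 6.38 for CTCF and 5.67 for Rad21. A second was in an intron 2291 bp from a TSS, with 11.4 and 6.25, and its motif, at chr12:36217011-36217030, was the only one of the window.
Ahr, intron, plus strand: gggacCGGCCACTAGAGGGGGCTTAttttg
Another lay in a coding exon, 23021 bp from the nearest of the 3 annotated TSS, an internal one, with 9.38 for CTCF and 7.15 for Rad21, the highest Rad21 value of the window. The span thus held 3 of the 4 pairs. The last, 44.0 kb upstream of the gene, had a low CTCF value of 3.16 (percentile 12) and a higher Rad21 value of 6.63 (65.6). The only CNC peak, at 2.46, was in an intron 504 bp from a TSS, and on the 3′ side no peak was found within 50 kb.

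Nfe2l2, on the minus strand of chr2 at 75513570 to 75542698, had 3 weak CTCF peaks in a row over its promoter, all CAC. Their enrichments were 3.81 in an intron, 2.57 in a UTR 67 bp from a TSS and 4.02 upstream, in an exon of the noncoding gene E030042O20Rik. The Rad21 peak over the first 2 was broad, with 1151 bp, and had an enrichment of 5.02, and the upstream one had 3.56. The strongest pair of the window lay 38.7 kb beyond the 3′ end of the gene, with 13.3 for CTCF, 10.3 for Rad21 and a motif. On the same side a Rad21 peak of 8.79 covered CTCF peaks of 3.71 and 3.30. On the upstream side the highest values were 4.95 for CTCF and 5.96 for Rad21. Inside the gene a CAC peak had 4.78 and 3.01, and the Lone CTCF and CNC peaks had 3.89 and 3.15. The highest Lone CTCF peak of the window had 4.21.

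Por encodes the reductase that supplies microsomal P450 enzymes with electrons. It lies on the plus strand of chr5, at 136145903 to 136211196, with 9 annotated TSS over its length. Its span of 65294 bp held 7 CTCF peaks, of which 6 were CAC and 1 of 3.02 Lone CTCF, and 11 Rad21 peaks, of which 5 were CNC. CTCF values ran from 2.95 to 6.74 and Rad21 values from 2.26 to 5.24. A broad pair, 953 bp wide in the CTCF list and 1318 bp in the Rad21 list, lay over an internal TSS with 6.41 and 5.24. Another TSS, 36 bp from a Rad21 summit, had a CNC peak of 3.28. Within 1 kb of the same TSS lay a CAC pair of 3.90 for CTCF and 3.34 for Rad21. The CTCF peak of 6.74 lay 163 bp from yet another TSS, with a motif of 13.3 bits and 3.91 for Rad21.

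The stronger pairs of the Por window were outside the gene. In an intron of Styxl1, 28.4 kb beyond the 3′ end, CTCF reached 18.4 and Rad21 21.9 (percentile 97.4), with summits 3 bp apart. In an intron of Tmem120a, 2.02 kb beyond the 3′ end, CTCF was almost as high, at 16.3 (percentile 83.2), but Rad21 only at 3.74 (29.1), a gap of 54.1 percentile points that was the largest in favour of CTCF among the 79 pairs. Upstream, the highest CTCF value was 11.2, with a motif of 22.8 bits, and the highest Rad21 value 9.91, at the Rhbdd2 promoter. Of the 10 CNC peaks of the window 4 lay in Rhbdd2, and the highest of them had 4.06. The highest Lone CTCF peak, at 4.41, was at the Styxl1 TSS.

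**Figure D4:**
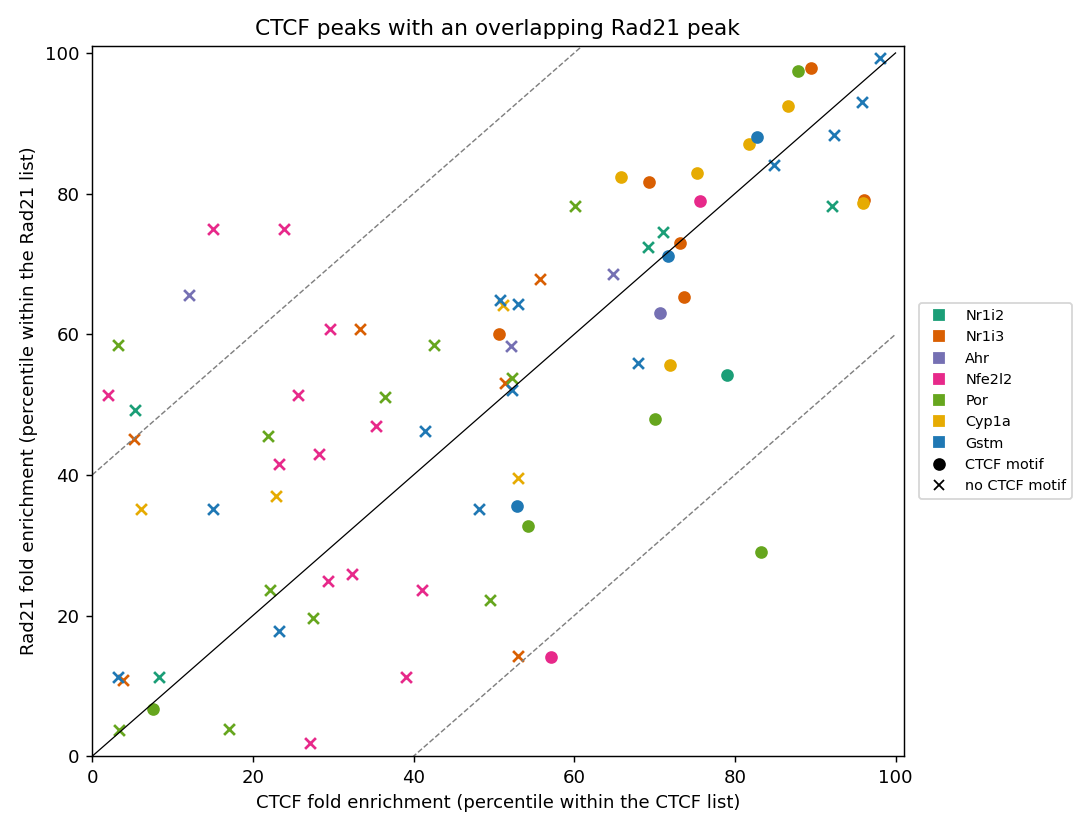
CTCF against Rad21 for the 79 CAC peaks of the 7 windows, each axis giving the percentile of fold enrichment within its own list. Colours give the window, round points carry a CTCF motif and crosses do not, the solid line marks equal percentiles and the dashed lines a gap of 40 points. The Por peak at 83.2 for CTCF and 29.1 for Rad21 lies lowest on the right, and 6 crosses lie above the upper dashed line.

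Such gaps were rare. Of the 79 pairs 2 were higher in CTCF by 40 percentile points or more, or 2.53%, beside 2.77% of the CAC peaks in the list, and 6 were higher in Rad21, or 7.59%, beside 3.74%. Of these 6, 3 were in the Nfe2l2 window and 1 each in those of Nr1i2, Ahr and Por, and none had a motif within 100 bp of the CTCF summit. Over the whole peak, that of 2.57 at the Nfe2l2 TSS held a match of 17.5 bits 141 bp from its summit. A Rad21 peak that covered more than 1 CTCF peak was counted with each. This holds for 4 of the 6, of which 2 share a Rad21 peak of 8.79 in the Nfe2l2 window, while those at the Nfe2l2 TSS and in the Por window had summits 772 bp and 394 bp from that of a Rad21 peak whose nearer CTCF peak was another. Summits lay within 100 bp in 54 of 79 pairs, or 68.4%, beside 82.5%.

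Cyp1a2 and Cyp1a1 are transcribed away from each other on chr9, with 14 kb between their starts. Cyp1a2 encodes a major constitutive P450 of liver and Cyp1a1 is the classical gene induced through the aryl hydrocarbon receptor, which binds, with its partner Arnt, a short DNA element called the xenobiotic response element (XRE). No peak of either factor lay within 1 kb of the Cyp1a2 TSS, and none did within 2.5 kb. The nearest were a CNC peak of 2.65 and a CTCF peak of 11.8, whose edges lay 4030 and 4399 bp away in the shared intergenic stretch. The latter was CAC, with 5.42 for Rad21 and summits 5 bp apart, and its motif, at chr9:57536065-57536084, is shown because it is the only one between the genes.
Between Cyp1a2 and Cyp1a1, plus strand: cacggGGGCCAGAAGGGGGCATCAAattcc

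Before Cyp1a1 lay the only other CTCF peak of the stretch, broad and of middling height. It spanned chr9:57543840-57544833, 994 bp, with an enrichment of 6.21 (percentile 51.1), and the Rad21 peak spanned 57544111 to 57544905 with 6.41 (percentile 64.2). The summits lay 906 bp and 1100 bp before the Cyp1a1 TSS and 194 bp from each other, and no match reached the CTCF motif threshold. The letters TNGCGTG, the core of the XRE, were then looked for on both strands. The 1000 bp around this CTCF summit held 7 matches, and it was the only one of 68667 CTCF peaks with that many. Among all CTCF peaks 12% held at least 1, and in the windows 16 of 96 did, the other 15 with 1 each. These are descriptions of sequence, and binding of the receptor was not measured here.

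The matches began 1384, 1208, 1063, 986, 897, 826 and 493 bp before the Cyp1a1 TSS. Of the 7, 6 lay inside the CTCF peak and 5 of these also inside the Rad21 peak. Over the 1500 bp before the TSS 16.4% of autosomal protein-coding genes held a match, and Cyp1a1 alone of 21418 genes had more than 4. Of the other members only Gstm2 had a match there, 1 that lay inside both peaks. The 300 bp around the CTCF summit, chr9:57544364-57544663 on the plus strand, are shown with the 3 matches that fall into them in capitals.
Cyp1a1, upstream CAC peak: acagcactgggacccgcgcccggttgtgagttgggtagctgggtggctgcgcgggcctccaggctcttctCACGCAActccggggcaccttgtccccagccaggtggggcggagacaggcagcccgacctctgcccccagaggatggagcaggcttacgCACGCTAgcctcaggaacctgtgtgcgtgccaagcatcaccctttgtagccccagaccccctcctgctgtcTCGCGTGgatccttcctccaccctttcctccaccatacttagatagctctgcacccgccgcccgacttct

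**Figure D5:**
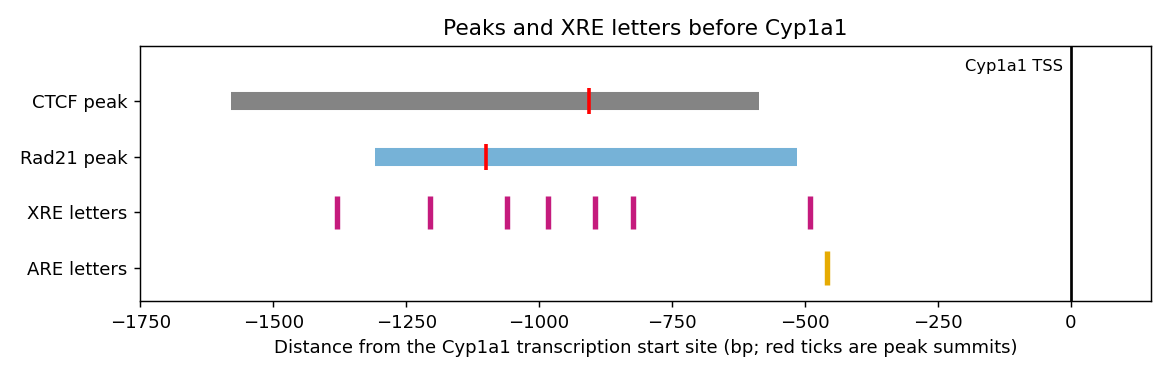
The stretch before Cyp1a1. The x axis is the distance in bp from the TSS, the bars are the CTCF and Rad21 peaks with their summits as red ticks, and the short vertical lines are matches to the XRE and ARE letters. Of the 7 XRE matches 6 stand under the CTCF peak, starting between 1384 and 826 bp before the TSS.

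The same search was made for TGACNNNGC, the core of the antioxidant response element (ARE) that Nrf2 and small Maf proteins bind. It matched around 41 of the 96 CTCF peaks, or 42.7%, beside 31.0% of the list, with at most 3 matches at a peak. In both searches the stretches around neighbouring peaks can overlap, so that the same letters count at more than 1 peak. More CTCF peaks lay within 1 kb of a TSS in the windows, 37.5% beside 23.4% of the list. The part of either in these shares was not tested. In the 1500 bp before the TSS, where 39.0% of genes hold a match, 3 of the 10 members did, namely Cyp1a1, Nfe2l2 and Nr1i2 with 1 each, and only that of Nfe2l2 lay inside peaks.

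Around the Cyp1a pair of genes stood strong peaks on both sides. On the low-coordinate side 2 pairs were the highest. The CTCF peak 48 bp from the TSS of the kinase gene Csk had an enrichment of 22.8 (percentile 95.9) with 10.1 for Rad21, and a pair in a Csk intron had 17.9 and 17.3, with the highest motif score of the 96 peaks, 25.3 bits on the plus strand. On the high-coordinate side, in an intron of Edc3 41.1 kb from the span, the values were 15.8 and 14. A Lone CTCF peak in an Edc3 UTR, with a motif and an enrichment of 11.7, was the highest of the 17 Lone CTCF peaks, and the highest CNC peak, at 3.40, was at the Edc3 TSS.

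The 3 Gstm genes lie in a tandem array on the minus strand of chr3, between Gstm5, Gstm7 and Gstm6 on one side and Gstm4 on the other. The strongest pair of the 7 windows was in an intron of the annotated span of Gstm3, which reaches over the Gstm6 promoter. At chr3:107756151-107756664 CTCF reached 24.8 (percentile 98.1) and Rad21 25.4 (percentile 99.3), with summits 1 bp apart. No motif was found within 100 bp of this summit, where the best match scored 1.51 bits, and over the whole peak a match of 13.8 bits lay 228 bp from the summit. The second strongest CTCF peak of the array sat on the Gstm1 promoter.

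The mu-class enzymes join glutathione to reactive chemicals. At Gstm1 the CTCF peak at chr3:107820817-107821297 had an enrichment of 22.8 (percentile 95.8), with the summit 151 bp before the TSS, and the Rad21 peak of 893 bp had 17.8 (percentile 93.0), with the summit 136 bp before it. At Gstm2 there were 2 CTCF peaks, of 3.30 in an exon and of 5.77 upstream, under 1 Rad21 peak of 4.0. At Gstm3 the values were 3.70 and 3.29. The CTCF peak of Gstm1 was thus the highest of the 3. The neighbours Gstm6, Gstm7, Gstm4 and Gstm5 had 11.7, 10.4, 6.44 and 4.97 at their TSS, so all 7 genes of the family carried a CAC peak there.

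The 4 promoters whose CTCF peaks held a match of more than 12 bits had it on the same strand, from 129 bp before the TSS at Gstm1 to 335 bp at Gstm2, and their sequences are shown to compare the paralogs. All read on the minus strand, the strand of the genes, with capitals for the match.
Gstm1, 13.2 bits, chr3:107821020-107821039: gggagCATCCAGCAGGCGGCGATGGcggca
Gstm6, 15.6 bits, chr3:107746800-107746819: ctgagAATCCAGCAGGGGGCAGATGgaagc
Gstm3, 12.3 bits, chr3:107772359-107772378: gggggCACCCATTAGGGGGCGGTGAcagga
Gstm2, 12.1 bits, chr3:107789706-107789725: tggctCAGCCACCAGGAGCCACCCAgaacc
The Gstm6 and Gstm3 matches share 14 of 20 bases each with that of Gstm1 and the Gstm2 match shares 11. Only the Gstm6 match passes the threshold of 13.3 bits, and that of Gstm1 lies just below it. The order of the scores is not the order of the enrichments, since Gstm1 had the higher enrichment of the first 2 and the lower score.

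Reads that map to several places were discarded by the authors, and near-copies of genes hold fewer unique reads. In the Gstm span 86.3% of 50-base words occur once in the genome, against 96.5 to 100% in the other 6 spans. The part of this in the Gstm counts was not tested. Within the 38 Gstm peaks at least 97.2% of the words were unique, and 35 were fully so.

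Outside the 3 genes, the strongest pairs of the Gstm window were in a Gstm6 intron (CTCF 17.1, Rad21 12.5), 24.1 kb from the span with the motif shown at the start (16.2 and 14.6), and 43.7 kb upstream of Gstm1 (20.7 and 14.7). Between the genes the values were lower, with 6.51 and 4.03 for a motif-bearing pair between Gstm3 and Gstm2 and 6.18 and 6.50 for a pair between Gstm2 and Gstm1. CNC peaks of 3.99 and 2.66 lay between Gstm3 and Gstm2. The highest Lone CTCF peak of the window had 6.10 and the highest CNC peak, in a Gstm2 intron, 4.50.

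The 6 CTCF peaks above the 90th percentile included those at the Csk promoter, in the Gstm3 intron, at the Gstm1 promoter, upstream of Gstm1 and upstream of Nr1i2. All 6 were CAC. Of the 6, 2 carried a motif, that at the Csk promoter among them, beside 83.1% of all CTCF peaks above that percentile. The best matches of the 4 without one, at Gstm3, Gstm1, upstream of Gstm1 and upstream of Nr1i2, were 1.51, 13.2, 11.9 and 12.5 bits, so that 3 of them missed the threshold by less than 2 bits. With 6 peaks this is a description only.

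A run of 12 bases, CCAGAAGAGGGC, recurred in the motifs and was picked out after they were seen. It stood in 7 of the 31, beside 19.1% of all motifs in the list. Of the 7 Lone CTCF peaks with a motif 5 held it, beside 43.7% of such peaks in the list, and of the 24 CAC peaks with a motif 2 did, beside 11.5%. Of the 7 motifs 3 are shown for a likeness that extends beyond the run on both sides, the first 2 from Lone CTCF peaks and the last from a CAC peak.
Nr1i3 window, chr1:173120457-173120476, plus strand: cagacCCACCAGAAGAGGGCATCAGatccc
Nr1i2 window, chr16:38338357-38338376, plus strand: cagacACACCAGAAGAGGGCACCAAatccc
Nfe2l2 window, chr2:75502146-75502165, plus strand: cagacACACCAGAAGAGGGCATCAGatcaa
The enrichments of the 5 Lone CTCF peaks were 3.35, 4.21, 5.22, 7.70 and 11.7. Repeats were not annotated here.

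A list of 48 further genes of xenobiotic metabolism was read in the same way, of which 47 matched the annotation. Within 1 kb of a TSS 34 had a CAC peak, or 72.3%, beside 50.7% of autosomal protein-coding genes. Gstm4, Gstm5, Gstm6 and Gstm7 are among these 34, with peaks that lie in the Gstm window described above. Of the rest, 6 had a CNC peak only, 1 a Lone CTCF peak only, 1 both factors without overlap, and 5 no peak. Over all autosomal protein-coding genes 58.0% had a peak of either factor, and the shares of the other classes are not given. Among the partners and regulators of the sensors named next, each had a CAC peak. Arnt, the partner of the aryl hydrocarbon receptor, had 5.06 for CTCF and 5.80 for Rad21. The receptor's repressor Ahrr had 7.01 and 3.32. Keap1, which holds Nrf2 in the cytoplasm, had one of the lowest values of the list, 2.32, and Rxra, the partner of PXR and CAR, reached 8.35 and 3.02.

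Targets were more varied. Among genes of the Nrf2 response Gclm, a subunit of the enzyme that starts glutathione synthesis, reached 24.6 for CTCF and 8.45 for Rad21, Hmox1 10.7 and 7.00, and Nqo1 had a Lone CTCF peak of 3.03. Among P450 genes Cyp1b1 had 21.0 and 11.7 and Cyp2b10, the classical CAR target, 17.0 and 11.3 at an internal TSS, while Cyp3a11, the classical PXR target, and Cyp2e1 had CNC peaks only, of 3.76 and 3.30. Sult1d1 had 19.3 and 20.4, also at an internal TSS. Within 1 kb of a TSS no peak was found for Gsta1, Gsta2, Gstt2, Cyp2b9 and Aldh3a1, though peaks lay further away or inside the gene, such as a CTCF peak of 20.9 located 1543 bp from a TSS of Gsta2 and a Rad21 peak of 11.8 within Gstt2.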

How the data were processed

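ChIP-seq was made from liver nuclei, with 4 CTCF and 3 Rad21 libraries. Per the labels and methods, the authors aligned reads with Bowtie2 to mm9, kept unique reads, called peaks with MACS2 on the pooled libraries of each antibody and removed blacklisted regions and peaks made of duplicates only. The deposited lists give for each peak a score, a fold enrichment at the summit, −log10 p-values and −log10 q-values. Read depth is not recorded in them, so only counting error could be given. From these lists, peaks overlapping each window by at least 1 bp were kept, and annotation was taken from GENCODE on the same build. The motif matrix was learned from 1000 CTCF peaks outside the windows, each of at least 23.9-fold enrichment. Python 3.11.15, pandas 2.3.3, numpy 2.4.6, scipy 1.17.1, numba 0.67.0 and Biopython 1.88 were used, and the counting steps were tested on simulated data. The members and gene lists were chosen with earlier results of these data known. Peaks named are mainly those within 1 kb of a member TSS or in a gene span. Also named are the highest of each factor on each side and the highest Lone CTCF and CNC peak of each window. The highest on the high-coordinate side of Nr1i3 are left out, and others were named after their values were seen. Results at some neighbouring and pathway genes are not reported here.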

Additional observations from a re-analysis of the deposited data

How the results depend on the processing

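Alternatives were run on the 9 main values, and 27 alternative values stayed within the limits set for them while 19 did not, all given here with no cause tested. Keeping peaks of at least 5-fold enrichment left 51 CTCF and 43 Rad21 peaks, a CAC share of 72.5% (70.1% in the whole list), a CNC share of 14% (list 16.1%) and a motif share of 52.9% (list 61.8%). At −log10 q of at least 10 there were 64 Rad21 peaks, shares of 71.4% CAC (list 71.2%) and 21.9% CNC (list 19.3%), and medians of 6.54 for CTCF (list 9.02) and 5.96 for Rad21 (list 7.04). Windows of 20 kb on each side held 60 and 70 peaks. With summits within 100 bp the shares were 56.2% CAC (list 60.8%) and 50% CNC (list 39.2%), and with 50% of the peak covered the CNC share was 40.7% (list 32.9%). At a 5% background the motif share was 52.1% (list 62.5%). Inward-pointing motifs were found at 2 spans with 100 kb windows, at 2 with the 5% background and at 1 with motifs within 50 bp of the summit. No paired analysis was possible because the libraries were pooled before peaks were called, and for the same reason no replicate could be left out.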
